A study of Mus musculus with 9 samples.

Results

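The macrophage and myeloid identity genes are a set of 31 genes that mark macrophages, their myeloid relatives or leukocytes at large. The set was drawn up by gene name, with earlier results of these data known, and all 31 were present in each of the 3 deposited tables, among 16750 genes found in at least 2 of them. The libraries hold RNA of the media, the smooth muscle layer, of femoral arteries of C57BL/6 mice, with 3 libraries in each of 3 groups. Inhibitor-treated arteries were wire-injured arteries taken at day 14 from mice dosed by oral gavage with VS-4718, an inhibitor of FAK (focal adhesion kinase), at 50 mg/kg and 2 doses daily over 2 weeks. Injured arteries were wire-injured arteries taken at day 14 without the inhibitor. Sham arteries were the sham controls, whose day of collection the labels do not give. The vehicle was 10 mM citrate, listed at 2 doses daily for the sham and injured groups, and over 2 weeks for the injured group. No citrate is listed for the inhibitor-treated group, and whether those mice also received it is not stated. The labels do not give the age of the mice. The inhibitor was given by mouth and so to the whole animal. Fat and adventitia were dissected off, and a lysis reagent was flushed through the lumen to take away endothelial and immune cells. The RNA measured here is what was left after those steps, and endothelial and adipocyte genes were still measured in every group. Which cells held the RNA of the members was not tested. Replicates are numbered, but no label ties a library to 1 animal, so p-values here cover only how far these samples scatter, which may be technical.

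Macrophages arise from embryonic precursors or from blood monocytes. Their survival depends on the receptor Csf1r and its ligands Csf1 and Il34, and their identity on the transcription factor PU.1, the product of Spi1. In injured arteries macrophages clear debris and lipid and make cytokines and proteases, and smooth muscle cells that leave the contractile state can themselves take up some macrophage genes. The set holds genes of different breadth. Ptprc (CD45), Laptm5, Lcp1, Coro1a, Cd53, Cd52 and Hcls1 are used by leukocytes of nearly every kind, whereas Adgre1 (F4/80), Csf1r, Mrc1 and Ms4a7 are used mainly by macrophages.

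Levels are given as normalised read counts, which are read counts divided by 1 factor per library on a scale common to all 9 libraries. Log2 fold changes are given with their standard errors, and come from limma within the table of each pair of groups, where a gene was called at a Benjamini-Hochberg adjusted p under 0.05 over all genes tested. The libraries held 14676405 to 21247261 recovered reads. The smooth muscle list (10 genes such as Acta2 and Myh11) summed to 640978 to 658780.0 in inhibitor-treated, 157336 to 185868 in injured and 560174 to 733020.0 in sham arteries, so the labelled tissue was present in every library. Some libraries stood apart on other tissues: the summed skeletal muscle list reached 521137 in the second injured library, while injured replicates 1 and 3 had 60756 and 31288, and the hepatocyte list 24468 in inhibitor-treated replicate 3, against 1749 and 2940 in the other inhibitor-treated libraries.

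All members but Cd84 had their highest mean level in injured arteries, and for Laptm5, Cd53, Cd84 and Ms4a4c the inhibitor-treated libraries overlapped the injured ones. Summed over the 31 genes, they held 0.0567, 0.0857 and 0.0831% of the reads in inhibitor-treated replicates 1 to 3, 0.363, 0.431 and 0.297% in injured replicates 1 to 3, and 0.0295, 0.0283 and 0.0353% in sham replicates 1 to 3. The 3 groups did not overlap in this share, in which Lyz2 weighs most, with a mean of 5257 normalised counts in inhibitor-treated, 21118 in injured and 2103 in sham arteries. In bulk arteries, fewer cells of a type and less RNA per cell cannot be told apart.

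Between injured and sham arteries, 30 of the 31 members were called higher in injured arteries and none lower, against 20.6% of all 16278 genes tested called higher and 16.8% called lower. The exception was Cd163. The median log2 fold change of the members was 3.65, from 0.58 to 6.81, and that of all genes tested was -0.003. The 3 injured libraries lay above the 3 sham libraries for those same 30 members, a separation in this direction that 26% of all genes tested showed, and no member had the opposite separation, which 25.3% of all genes did.

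Between inhibitor-treated and injured arteries, 27 of the 31 members were called lower in inhibitor-treated arteries and none higher, against 18.5% of all 16901 genes called lower and 17.6% called higher. The 4 members that did not pass were Laptm5, Cd53, Cd84 and Ms4a4c. The median log2 fold change of the members was -2.58, from -5.03 to 0.24, and that of all genes was 0.006. For those 27 members every inhibitor-treated library lay below every injured library, which 25.5% of all genes did, and no member had the opposite separation, which 26.1% did.

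Between inhibitor-treated and sham arteries, 13 members were called higher in inhibitor-treated arteries, none lower, and 18 did not pass, against 5.15% of all 16166 genes called higher and 0.934% called lower. The 13 were Ptprc, Laptm5, Lcp1, Coro1a, Cd53, Cd52, Mpeg1, Lyz2, Cd84, Ms4a4c, Clec7a, Ly86 and Tyrobp. The median of the 31 was 0.90, from -0.57 to 5.38, and that of all genes was -0.007. Every inhibitor-treated library lay above every sham library for 15 members, against 14.7% of all genes, and below for 1, Cd163, against 13.1%. Without sham replicate 1 the count of called members was 7, with Lcp1, Coro1a, Mpeg1, Lyz2, Ly86 and Tyrobp no longer called. The 3 comparisons share libraries in pairs, so their values for a member are not independent of each other. Inhibitor-treated replicate 1 was the lowest of its group for 26 of the 31 members and inhibitor-treated replicate 3, the library high in hepatocyte genes, the highest for 18. Injured replicate 3 was the lowest of its group for 24 and injured replicate 2, the library high in skeletal muscle genes, the highest for 26. Sham replicate 3 was the highest of its group for 20. A setting without the libraries that stand apart left out these 2 high libraries and also sham replicate 3, on grounds not recorded here. In that setting 31 members were called for injured over sham, 26 for inhibitor-treated over injured and 11 for inhibitor-treated over sham.

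**Figure D1:**
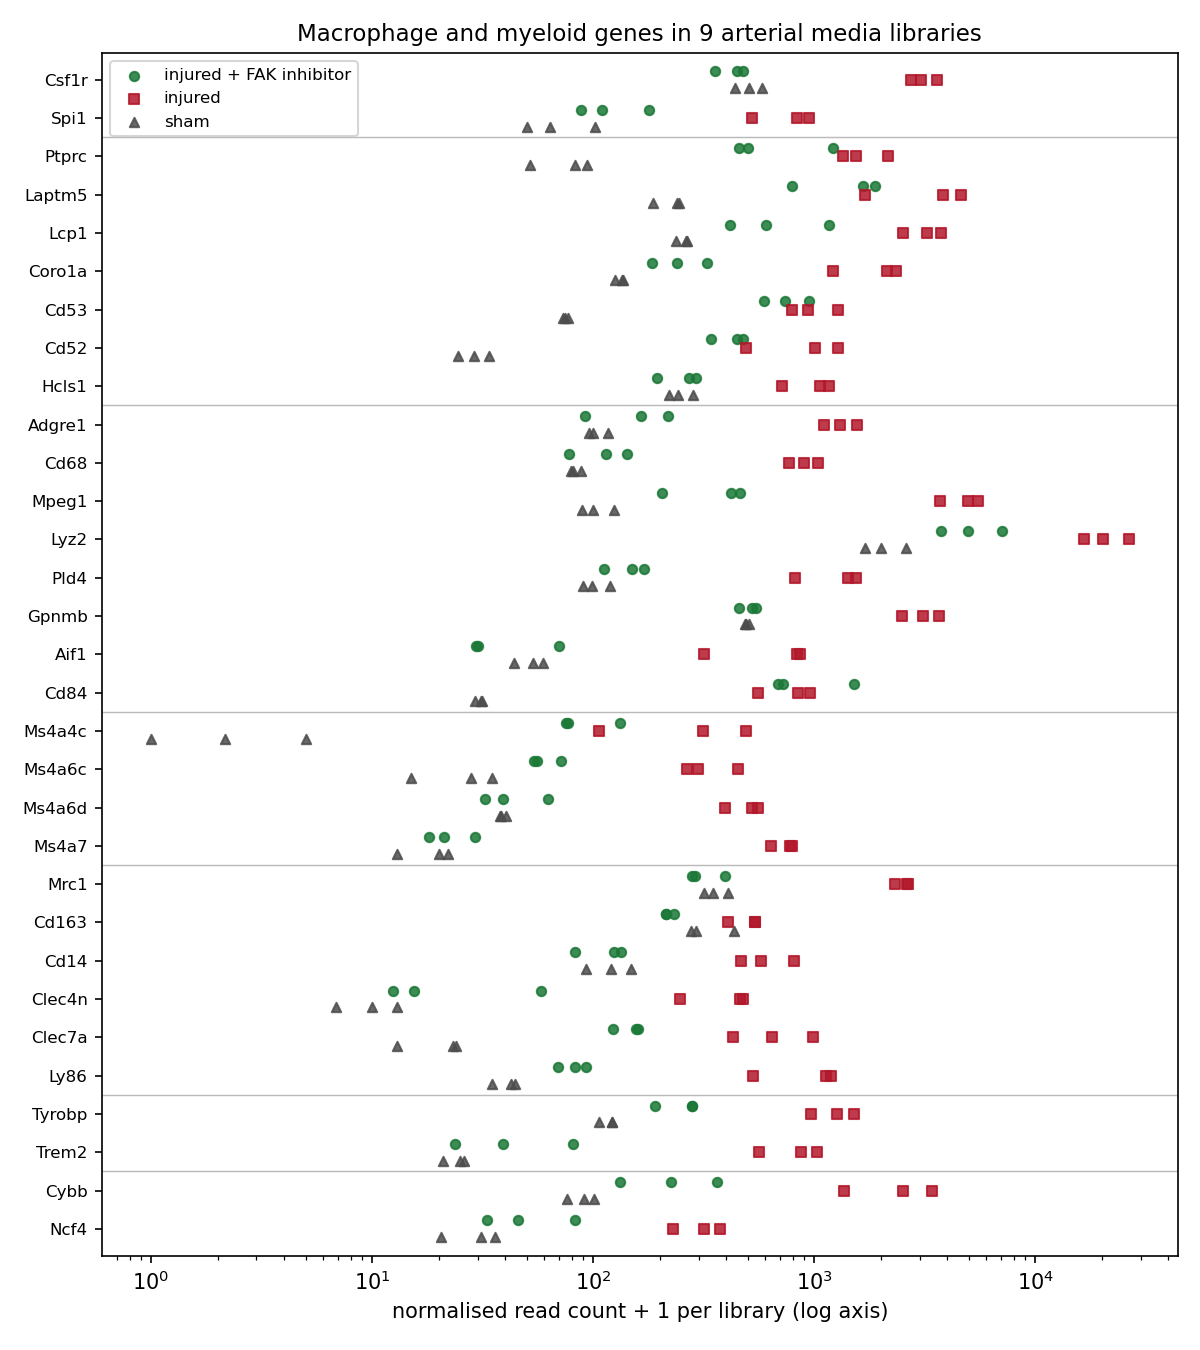
Normalised read count plus 1 on a log axis for each of the 31 members, 1 symbol per library, with inhibitor-treated arteries as circles, injured arteries as squares and sham arteries as triangles, from top to bottom within each gene. The injured symbols lie to the right of the sham symbols for 30 members, while the inhibitor-treated symbols overlap the sham symbols for genes such as Csf1r and Mrc1 and the injured symbols for Cd53 and Cd84.

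Csf1r is the receptor for Csf1 and Il34 on macrophages (ENSMUSG00000024621). It had 355, 449 and 476 normalised counts in the inhibitor-treated libraries, 2744, 3608 and 3056 in the injured libraries and 507, 439.6 and 581 in the sham libraries. The injured libraries stood well above all others, and the inhibitor-treated libraries overlapped the sham libraries. The log2 fold change was 2.61 ± 0.15 (adjusted p = 1.57e-05) for injured over sham, -2.87 ± 0.15 (adjusted p = 4.38e-05) for inhibitor-treated over injured, and -0.25 ± 0.15 (adjusted p = 0.386) for inhibitor-treated over sham, which did not pass. Of its exon bases, 15.1% overlap exons of Hmgxb3 on the opposite strand, and the use of strand in the counting is not given in the sources used here.

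Spi1 encodes PU.1, the factor that sets up macrophage and B cell gene programmes (ENSMUSG00000002111, GRCm38 chromosome 2, 91082390 to 91115756, plus strand). It had 87.3, 108 and 177 normalised counts in inhibitor-treated, 834, 951 and 522 in injured and 63.1, 49.2 and 101 in sham arteries. Every injured library was above every other library, and inhibitor-treated replicate 1 lay below sham replicate 3. The change was 3.43 ± 0.31 (adjusted p = 8.41e-05) for injured over sham, -2.64 ± 0.31 (adjusted p = 0.000781) for inhibitor-treated over injured and 0.81 ± 0.33 (adjusted p = 0.214) for inhibitor-treated over sham, the last not called.

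PU.1 binds purine-rich stretches with a GGAA core. The letters GAGGAA and GGAAGT were searched on both strands in RefSeq promoter windows of 300 bases (250 before a gene's start and 50 after it), of which 22 members have 27. The letters GAGGAA were in 51.9% of the members' windows and in 28.3% of all 32851 windows, and GGAAGT in 48.1% and 23.8%. The 2 motifs overlap where both occur as GAGGAAGT, found in 7.41% of the members' windows and in 3.20% of all. These are shares of short letter matches with no test, and a match is not a shown binding site.

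The 250 bases before the start are shown for 6 members as examples. All 6 were called higher after injury, while in inhibitor-treated arteries the first 3 were not called against sham and the last 3 were called above it. Each window shown holds at least 1 match, whereas windows of other members with the same calls, such as Gpnmb and Mpeg1, hold none. Coordinates are of build GRCm38.p6, each sequence is written 5′ to 3′ on the gene's strand, and capitals mark GAGGAA or GGAAGT or their reverse complements TTCCTC and ACTTCC.
Mrc1, chr2:14229164-14229413, plus strand: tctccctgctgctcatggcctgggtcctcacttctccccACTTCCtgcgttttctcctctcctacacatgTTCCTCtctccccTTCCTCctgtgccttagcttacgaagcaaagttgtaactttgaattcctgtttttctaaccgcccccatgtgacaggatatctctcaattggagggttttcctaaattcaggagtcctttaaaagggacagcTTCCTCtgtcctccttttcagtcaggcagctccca
Trem2, chr17:48346151-48346400, plus strand: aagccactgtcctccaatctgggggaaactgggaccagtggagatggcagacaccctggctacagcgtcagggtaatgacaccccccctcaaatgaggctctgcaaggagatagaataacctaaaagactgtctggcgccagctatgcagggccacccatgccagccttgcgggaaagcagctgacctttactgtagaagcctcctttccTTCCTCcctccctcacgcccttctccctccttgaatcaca
Ms4a7, chr19:11336147-11336396, minus strand: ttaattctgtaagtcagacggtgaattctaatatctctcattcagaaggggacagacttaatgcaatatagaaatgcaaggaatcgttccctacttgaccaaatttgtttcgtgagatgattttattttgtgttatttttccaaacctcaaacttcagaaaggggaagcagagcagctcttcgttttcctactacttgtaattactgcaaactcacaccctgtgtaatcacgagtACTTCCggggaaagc
Laptm5, chr4:130913066-130913315, plus strand: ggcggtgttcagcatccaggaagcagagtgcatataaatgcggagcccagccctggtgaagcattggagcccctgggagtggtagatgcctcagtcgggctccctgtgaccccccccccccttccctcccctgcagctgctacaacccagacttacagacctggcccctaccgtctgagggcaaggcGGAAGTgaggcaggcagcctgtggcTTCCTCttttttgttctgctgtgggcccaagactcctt
Cd53, chr3:106790150-106790399, minus strand: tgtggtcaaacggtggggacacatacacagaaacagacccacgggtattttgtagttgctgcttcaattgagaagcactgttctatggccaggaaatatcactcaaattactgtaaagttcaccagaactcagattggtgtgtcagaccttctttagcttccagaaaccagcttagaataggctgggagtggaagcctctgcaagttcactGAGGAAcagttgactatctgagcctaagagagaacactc
Ms4a4c, chr19:11407411-11407660, plus strand: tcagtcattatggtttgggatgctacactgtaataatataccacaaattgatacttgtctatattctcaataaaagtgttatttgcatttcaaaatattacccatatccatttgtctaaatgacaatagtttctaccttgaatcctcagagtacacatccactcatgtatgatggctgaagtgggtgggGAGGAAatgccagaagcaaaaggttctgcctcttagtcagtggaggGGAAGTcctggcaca
Mrc1 holds 4 matches in these bases, Laptm5 and Ms4a4c 2 each, and Trem2, Ms4a7 and Cd53 1 each. A second window of Ms4a7 holds none, and neither do the same bases of Cd163, Cd84, Coro1a, Cybb, Gpnmb, Ly86, Mpeg1 and Pld4, so nothing about either pattern follows from the 6 shown.

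All 7 pan-leukocyte genes were called higher for injured over sham, against 20.6% of all genes tested, with a median log2 fold change of 3.78. For inhibitor-treated over sham 6 of the 7 were called higher, against 5.15% of all genes, with a median of 2.62. Ptprc, the leukocyte phosphatase CD45, had 458, 499.9 and 1217 normalised counts in inhibitor-treated, 1357, 2160.2 and 1542 in injured and 51.1, 82.1 and 92.6 in sham arteries. Inhibitor-treated replicate 3 was more than double the other inhibitor-treated libraries and came near the lowest injured library, and no groups overlapped. Ptprc changed by 4.48 ± 0.25 (adjusted p = 1.62e-05) for injured over sham, -1.33 ± 0.37 (adjusted p = 0.0281) for inhibitor-treated over injured and 3.16 ± 0.38 (adjusted p = 0.00244) for inhibitor-treated over sham. The call against injured arteries was lost without inhibitor-treated replicate 1 (adjusted p = 0.0953), without inhibitor-treated replicate 2 (adjusted p = 0.093) without injured replicate 2 (adjusted p = 0.0894) and with scaling on ribosomal protein genes (-0.94, adjusted p = 0.112), all by limma.

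Cd53, a tetraspanin of leukocytes (chromosome 3, 106759921 to 106790149, minus strand), had 952, 589.8 and 734 normalised counts in inhibitor-treated, 934, 1277 and 794 in injured and 72.1, 73.9 and 76.2 in sham arteries. The inhibitor-treated and injured libraries overlapped, and both lay roughly an order of magnitude above the tight sham values. Its change was 3.70 ± 0.19 (adjusted p = 1.31e-05) for injured over sham and 3.32 ± 0.17 (adjusted p = 7.67e-05) for inhibitor-treated over sham, while -0.40 ± 0.22 (adjusted p = 0.202) for inhibitor-treated over injured did not pass.

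Cd52, a small glycoprotein anchored on lymphocytes and myeloid cells, had 477, 342 and 446 normalised counts in inhibitor-treated, 1008, 1279 and 490.4 in injured and 28.0, 23.4 and 32.7 in sham arteries. Injured replicate 3 lay just above the inhibitor-treated libraries, and the sham libraries were far below both groups. The change against injured arteries, -1.04 ± 0.34 (adjusted p = 0.0473), was lost without any 1 of inhibitor-treated replicates 1, 2 and 3 or injured replicates 1 and 2 (adjusted p from 0.09 to 0.14), and that against sham was 3.87 ± 0.19 (adjusted p = 6.65e-05).

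Laptm5, a lysosomal membrane protein that regulates antigen receptors, had 794, 1658 and 1888 normalised counts in inhibitor-treated, 4603, 3831 and 1692 in injured and 186, 238 and 243 in sham arteries. Injured replicate 3 fell among the inhibitor-treated libraries, and all 6 lay above the sham libraries. Its change of -1.19 ± 0.44 (adjusted p = 0.073) for inhibitor-treated over injured was not called, and became -1.63 and called without injured replicate 3 (adjusted p = 0.0141). For inhibitor-treated over sham it was 2.62 ± 0.30 (adjusted p = 0.00184).

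Lcp1 (L-plastin), which bundles actin, had 416, 606 and 1163 normalised counts in inhibitor-treated, 3246, 3733 and 2514 in injured and 235, 264 and 261 in sham arteries, Coro1a (coronin 1A) had 184, 239 and 328 in inhibitor-treated, 2139, 2340.3 and 1215 in injured and 134, 124 and 136 in sham arteries, and Hcls1, a substrate of leukocyte kinases, had 194, 269.7 and 289.9 in inhibitor-treated, 1068, 1173 and 714 in injured and 241, 283 and 219 in sham arteries. For these 3 genes the injured libraries were the highest without overlap, and for Hcls1 the inhibitor-treated and sham libraries overlapped. Inhibitor-treated over sham, Lcp1 changed by 1.40 ± 0.32 (adjusted p = 0.0408) and Coro1a by 0.90 ± 0.20 (adjusted p = 0.0387), both calls that several settings lost, and Hcls1 was at 0.02 ± 0.17 (adjusted p = 0.964), not called. Inhibitor-treated over injured, Lcp1 changed by -2.23 ± 0.35 (adjusted p = 0.00266), Coro1a by -2.90 ± 0.29 (adjusted p = 0.000414) and Hcls1 by -1.95 ± 0.23 (adjusted p = 0.000727).

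All 8 macrophage surface, lysosome and lytic genes were called higher in injured than in sham arteries, against 20.6% of all genes tested. For inhibitor-treated over injured 7 were called lower, against 18.5% of all genes. For inhibitor-treated over sham 3 (Mpeg1, Lyz2 and Cd84) were called higher, against 5.15% of all genes. Adgre1, the F4/80 adhesion receptor, had 91.1, 163 and 217 normalised counts in inhibitor-treated, 1106, 1559 and 1306 in injured and 99.1, 95.0 and 115 in sham arteries. Cd68, a lysosomal membrane glycoprotein, had 76.9, 113 and 141 in inhibitor-treated, 898, 1043 and 771 in injured and 78.1, 79.7 and 87.1 in sham arteries. For both, every injured library was far above all others, and 1 inhibitor-treated library lay below every sham library and 2 lay above. Adgre1 changed by 3.65 ± 0.16 (adjusted p = 1.01e-05) for injured over sham and -3.14 ± 0.31 (adjusted p = 0.000352) for inhibitor-treated over injured, and Cd68 by 3.44 ± 0.16 (adjusted p = 1.01e-05) for injured over sham and -3.05 ± 0.23 (adjusted p = 0.000139) for inhibitor-treated over injured. Neither was called for inhibitor-treated over sham, at 0.53 ± 0.29 (adjusted p = 0.348) for Adgre1 and 0.40 ± 0.23 (adjusted p = 0.364) for Cd68.

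Gpnmb, a glycoprotein of lysosome-rich macrophages, had 520.2, 548 and 457 normalised counts in inhibitor-treated, 2492, 3656 and 3102 in injured and 509, 489 and 486 in sham arteries. The inhibitor-treated libraries spread wider than the sham libraries and lay on both sides of them, and the difference of 0.05 ± 0.09 (adjusted p = 0.801) was not called. Pld4, a lysosomal exonuclease, had 111, 149 and 169 in inhibitor-treated, 1419.8, 1548 and 820.3 in injured and 89.1, 118 and 98.0 in sham arteries. Aif1, the calcium-binding protein Iba1, had 28.5, 68.8 and 29.1 in inhibitor-treated, 834, 860.1 and 317 in injured and 43.1, 58.6 and 52.3 in sham arteries. In Aif1, 2 of the 3 inhibitor-treated libraries lay below every sham library and injured replicate 3 was far below the other injured libraries, and neither Pld4 nor Aif1 was called against sham.

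Mpeg1 encodes perforin-2, a pore-forming protein of phagocytes (chromosome 19, 12460779 to 12465283, plus strand). It had 204, 421 and 462 normalised counts in inhibitor-treated, 4945, 5527 and 3726 in injured and 99.1, 123 and 88.2 in sham arteries. The 3 groups did not overlap, and the inhibitor-treated libraries were close to the sham libraries compared with the injured ones. It changed by 5.49 ± 0.18 (adjusted p = 3.56e-06) for injured over sham, -3.77 ± 0.31 (adjusted p = 0.000187) for inhibitor-treated over injured and 1.74 ± 0.30 (adjusted p = 0.0128) for inhibitor-treated over sham.

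Lyz2, lysozyme M of macrophages and neutrophils, had 3738, 7079.7 and 4954 normalised counts in inhibitor-treated, 20277, 26487 and 16589 in injured and 1997, 1702 and 2611 in sham arteries, and no groups overlapped. Of its 50-base transcript stretches, 15.4% also occur in transcripts of other genes, most often Lyz1. Reads may be split between such genes, and the value of Lyz2 is uncertain to that extent. Lyz2 changed by 1.31 ± 0.24 (adjusted p = 0.0161) for inhibitor-treated over sham, a call lost without sham replicate 1 (adjusted p = 0.0783) or sham replicate 2 (adjusted p = 0.0707).

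Cd84 encodes a receptor of the SLAM family found on macrophages, lymphocytes, mast cells and platelets (chromosome 1, 171839697 to 171890718, plus strand). It had 719, 1514 and 684 normalised counts in inhibitor-treated, 847, 954 and 557 in injured and 30.0, 28.1 and 30.5 in sham arteries. Inhibitor-treated and injured libraries overlapped, and the highest single value belonged to an inhibitor-treated library. Its change was 4.64 ± 0.22 (adjusted p = 1.08e-05) for injured over sham, 0.24 ± 0.33 (adjusted p = 0.592) for inhibitor-treated over injured, which did not pass, and 4.90 ± 0.28 (adjusted p = 8.52e-05) for inhibitor-treated over sham.

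**Figure D2:**
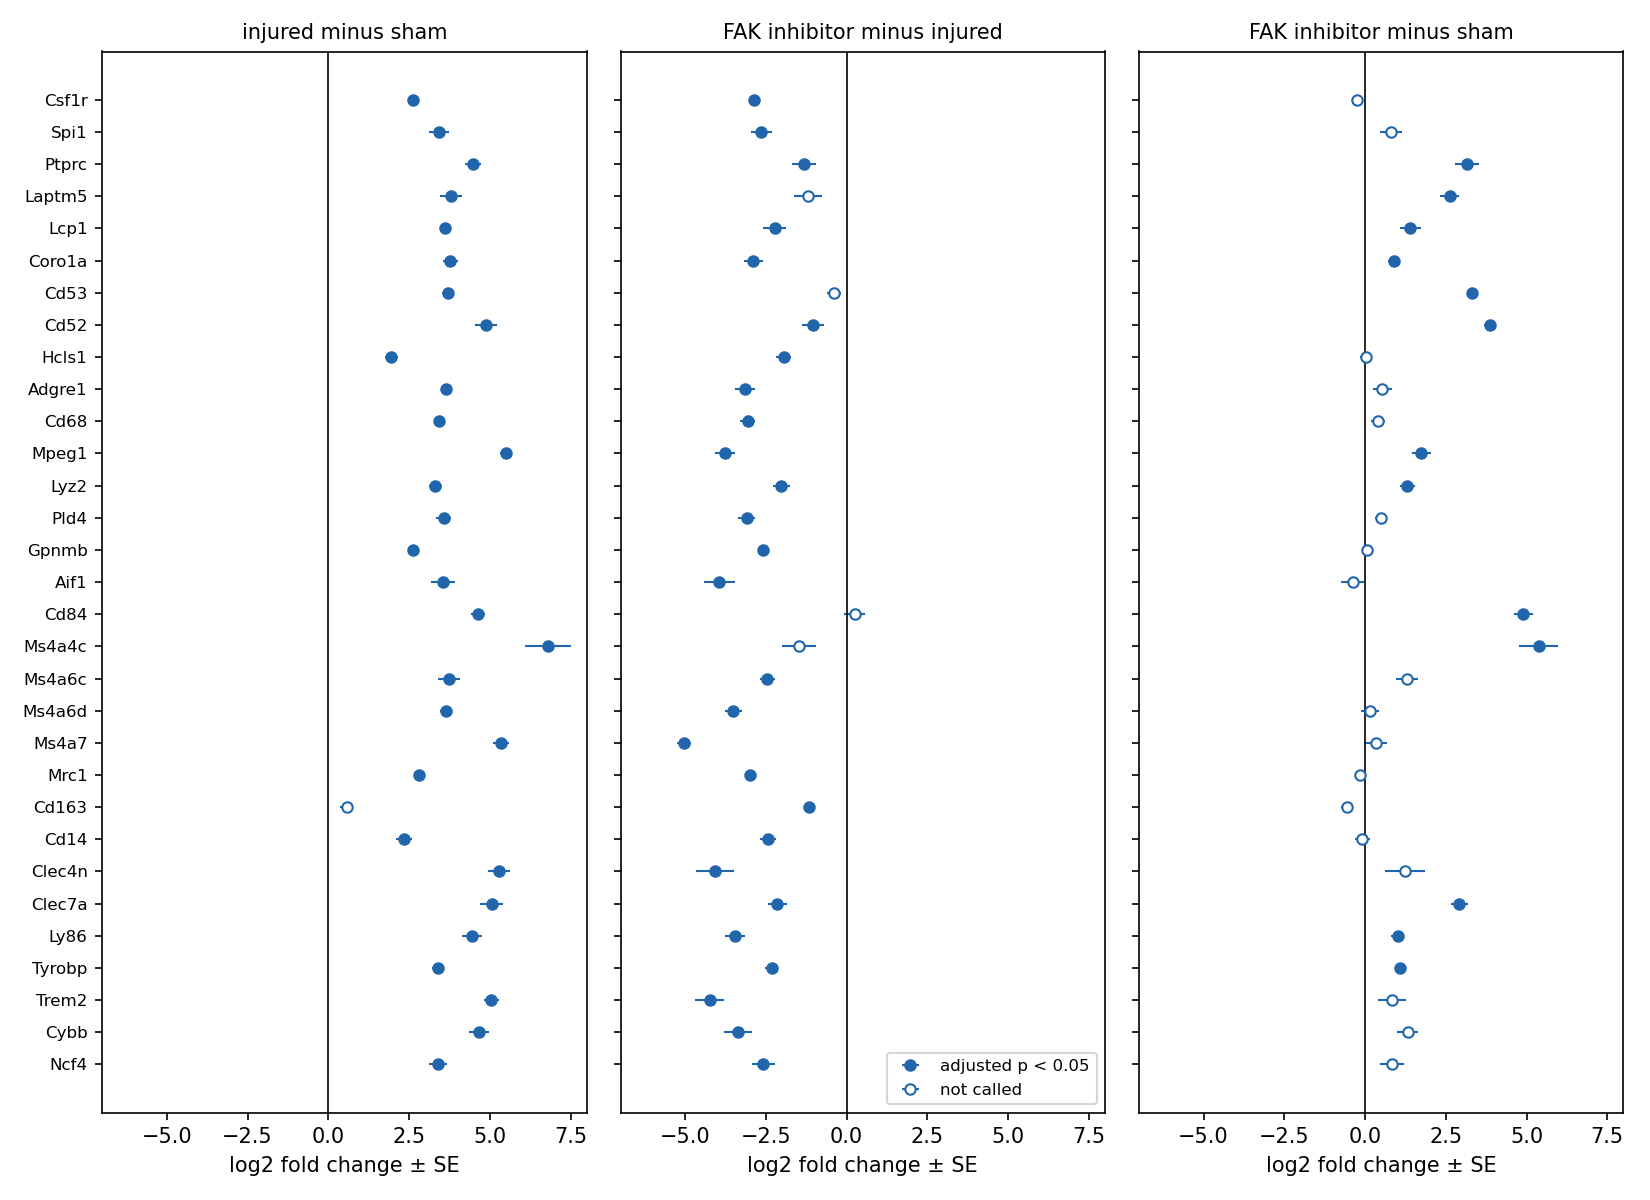
Log2 fold change with its standard error for the 31 members, in panels for injured minus sham, FAK inhibitor minus injured and FAK inhibitor minus sham arteries; filled points passed an adjusted p of 0.05 and open points did not. The points lie right of 0 in the first panel, left of 0 in the second except for Cd84, and spread from -0.57 to 5.38 in the third.

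The MS4A family are membrane proteins with 4 spans that cluster on chromosome 19, and its 4 members here separated from each other. Ms4a7, which marks monocyte-derived and border macrophages (chromosome 19, 11321039 to 11336146, minus strand), had 17.1, 20.2 and 28.2 normalised counts in inhibitor-treated, 773, 797 and 636 in injured and 19.0, 21.1 and 12.0 in sham arteries. Inhibitor-treated and sham libraries overlapped at low counts and every injured library was more than an order of magnitude above them. It changed by 5.34 ± 0.24 (adjusted p = 1.01e-05) for injured over sham, by -5.03 ± 0.22 (adjusted p = 3.34e-05) for inhibitor-treated over injured, the largest fall among the members, and by 0.33 ± 0.35 (adjusted p = 0.638) for inhibitor-treated over sham, not called.

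Ms4a6d had 31.3, 61.5 and 38.2 normalised counts in inhibitor-treated, 523, 558 and 396 in injured and 37.0, 37.5 and 39.2 in sham arteries, and its inhibitor-treated and sham libraries overlapped. Ms4a4c had 131, 74.3 and 76.3 in inhibitor-treated, 314, 490.3 and 106 in injured and 4.01, 1.17 and 0 in sham arteries. For Ms4a4c the inhibitor-treated range reached that of injured replicate 3, and the sham libraries were near 0. It changed by 6.81 ± 0.71 (adjusted p = 0.000175) for injured over sham and by 5.38 ± 0.61 (adjusted p = 0.00182) for inhibitor-treated over sham, both on the log2(count + 1) scale, and by -1.47 ± 0.54 (adjusted p = 0.0688) for inhibitor-treated over injured, not called, or -2.10 and called without injured replicate 3 (adjusted p = 0.0035).

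Ms4a6c had 53.2, 55.0 and 70.9 normalised counts in inhibitor-treated, 265, 450.4 and 298 in injured and 27.0, 14.1 and 33.8 in sham arteries, without overlap, and its difference of 1.31 ± 0.34 (adjusted p = 0.065) for inhibitor-treated over sham did not pass. It passed without sham replicate 3 (adjusted p = 0.0446) and with scaling on ribosomal protein genes (adjusted p = 0.0388). It also passed with DESeq2 (adjusted p = 0.0234) and, with the same fold change, in the authors' deposited table (adjusted p = 0.0235). These members share sequence with other genes. Of the 50-base stretches of Ms4a6c, 10.5% also occur in transcripts of other genes, most often Ms4a6b. For Ms4a4c it is 8.19%, most often Ms4a4b. In addition, 53.1% of the exon bases of Ms4a6c overlap BE692007 on the opposite strand. Their values are uncertain to that extent.

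Of the 6 scavenger and pattern recognition receptors, 5 were called higher in injured than in sham arteries, against 20.6% of all genes tested. All 6 were called lower in inhibitor-treated than in injured arteries, against 18.5% of all genes. For inhibitor-treated over sham 2 (Clec7a and Ly86) were called higher, against 5.15% of all genes. Mrc1, the mannose receptor CD206 (chromosome 2, 14229392 to 14332057, plus strand), had 279, 393 and 288 normalised counts in inhibitor-treated, 2670.2, 2321 and 2630.0 in injured and 315, 349 and 407 in sham arteries. The injured libraries stood alone, and the inhibitor-treated libraries overlapped sham. Its change was 2.82 ± 0.13 (adjusted p = 1.01e-05) for injured over sham, -2.998 ± 0.15 (adjusted p = 4.38e-05) for inhibitor-treated over injured and -0.16 ± 0.16 (adjusted p = 0.612) for inhibitor-treated over sham, not called.

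Cd163, the haemoglobin scavenger receptor of resident macrophages, changed least after injury. It had 212, 230.2 and 212 normalised counts in inhibitor-treated, 406, 537 and 540.3 in injured and 276, 291 and 431 in sham arteries. Sham replicate 3 lay within the injured range, and the inhibitor-treated libraries were below every other library. Its difference of 0.58 ± 0.20 (adjusted p = 0.0527) for injured over sham did not pass. It passed in 8 alternatives, among them without sham replicate 3 (0.78, adjusted p = 0.0146). DESeq2 and the authors' deposited table, which gave the same change of 0.57, were counted there as separate alternatives. Inhibitor-treated over injured it changed by -1.16 ± 0.15 (adjusted p = 0.000966), a call lost with scaling on ribosomal protein genes (-0.76, adjusted p = 0.0653). Inhibitor-treated over sham it was at -0.57 ± 0.17 (adjusted p = 0.104), not called by limma, while the authors' deposited table gives -0.60 with an adjusted p of 0.0398.

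Clec7a, the beta-glucan receptor dectin-1, had 122, 156 and 159 normalised counts in inhibitor-treated, 643, 989 and 428 in injured and 23.0, 22.3 and 12.0 in sham arteries. The 3 groups did not overlap, with inhibitor-treated arteries between the others, and inhibitor-treated over sham it changed by 2.92 ± 0.28 (adjusted p = 0.000787). Clec4n, dectin-2, had 11.4, 56.9 and 14.5 in inhibitor-treated, 476, 462 and 246 in injured and 9.01, 5.86 and 12.0 in sham arteries, where inhibitor-treated replicate 2 alone was well above sham. Ly86 (MD-1), a partner of the toll-like homologue RP105, had 68.3, 81.6 and 91.8 in inhibitor-treated, 1126, 1196 and 527 in injured and 34.0, 43.4 and 41.4 in sham arteries, and Cd14, the lipopolysaccharide coreceptor, had 81.6, 132 and 124 in inhibitor-treated, 572, 813 and 466 in injured and 120.2, 91.4 and 147 in sham arteries. Clec4n and Cd14 were not called against sham. The limma call of Ly86 against sham was lost in several settings. Among them were leaving out sham replicate 1 (adjusted p = 0.0787) and quantile normalisation (adjusted p = 0.072).

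Tyrobp encodes DAP12, the adaptor through which Trem2 and other receptors signal. It had 189, 278 and 278 normalised counts in inhibitor-treated, 1266, 1516 and 969 in injured and 105, 121 and 121 in sham arteries, without overlap, and changed by -2.32 ± 0.21 (adjusted p = 0.000286) for inhibitor-treated over injured and 1.09 ± 0.17 (adjusted p = 0.00933) for inhibitor-treated over sham. Trem2, a lipid-sensing receptor of macrophages (chromosome 17, 48346401 to 48354147, plus strand), had 22.8, 79.8 and 38.2 in inhibitor-treated, 1032, 869.6 and 565 in injured and 24.03, 19.9 and 25.0 in sham arteries. In Trem2 the inhibitor-treated libraries overlapped sham, with replicate 2 the highest of them, and its changes were 5.05 ± 0.25 (adjusted p = 1.1e-05) for injured over sham, -4.24 ± 0.44 (adjusted p = 0.000467) for inhibitor-treated over injured and 0.83 ± 0.43 (adjusted p = 0.319) for inhibitor-treated over sham, not called.

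Cybb, the catalytic gp91phox subunit of the phagocyte NADPH oxidase (chromosome X), had 131, 225 and 361 normalised counts in inhibitor-treated, 2515, 3426 and 1372 in injured and 75.1, 90.3 and 100.2 in sham arteries. Its groups did not overlap, but the change of 1.32 ± 0.33 (adjusted p = 0.0567) for inhibitor-treated over sham did not pass. It passed without inhibitor-treated replicate 1 (1.70, adjusted p = 0.0115), with the replicate block (adjusted p = 0.0221) and with scaling on ribosomal protein genes (adjusted p = 0.0419). It also passed with DESeq2 (adjusted p = 0.000471) and, with the same fold change, in the authors' deposited table (adjusted p = 0.000471). Ncf4, the p40phox regulatory subunit, had 32.3, 44.9 and 81.8 in inhibitor-treated, 315, 373 and 228 in injured and 30.0, 35.2 and 19.6 in sham arteries, and was not called against sham either.

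Set per kilobase of merged exon, so that genes can be compared, Lyz2 was the most abundant member in all 3 groups, at a mean of 3995 normalised counts per kilobase in inhibitor-treated, 16047 in injured and 1598 in sham arteries. The order below it changed with the group. In inhibitor-treated arteries Cd53 (436 per kilobase), Laptm5 (382), Tyrobp (372), Cd52 (355) and Cd84 (155) came next, whereas in injured arteries Tyrobp (1875), Mpeg1 (1092), Laptm5 (891), Cd52 (780.1) and Cd68 (719) did, and in sham arteries Tyrobp (173), Hcls1 (98.1), Csf1r (88.2), Gpnmb (75.9) and Cd14 (69.0). Cd84 ranked 6 of 31 in inhibitor-treated, 29 in injured and 27 in sham arteries, and Csf1r ranked 13 in inhibitor-treated, 9 in injured and 4 in sham arteries. No test was made between neighbours in these orders. Within a group, the members had a median ratio of highest to lowest library of 1.78 in inhibitor-treated, 1.64 in injured and 1.33 in sham arteries.

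Each of the other 24 members was then set against the 7 pan-leukocyte genes, as its log2 level minus their mean log2 level in the same library. The mean log2 level of the 7 genes itself changed by 3.75 for injured over sham, -1.58 for inhibitor-treated over injured and 2.18 for inhibitor-treated over sham. The 7 genes did not move together. Their changes ran from 1.96 to 4.89, from -2.90 to -0.40 and from 0.02 to 3.87 in that order of comparisons, so their mean is not a uniform leukocyte scale. Ms4a7 lay at -4.55, -4.53 and -4.59 in inhibitor-treated, -1.15, -1.34 and -0.81 in injured and -2.42, -2.43 and -3.26 in sham arteries, below both other groups in every inhibitor-treated library. Trem2 lay at -4.16, -2.60 and -4.16 in inhibitor-treated, -0.73, -1.22 and -0.99 in injured and -2.10, -2.51 and -2.26 in sham arteries. Cd84 went the other way, at 0.76, 1.63 and -0.04 in inhibitor-treated, -1.02, -1.08 and -1.01 in injured and -1.78, -2.03 and -1.99 in sham arteries. Csf1r lay at -0.25, -0.12 and -0.56 in inhibitor-treated, 0.68, 0.83 and 1.45 in injured and 2.25, 1.89 and 2.22 in sham arteries, so it was highest relative to leukocyte genes in sham arteries.

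Fitted with limma across all genes after this subtraction, 1 of the 24 members (Cd84) was called higher and 16 lower for inhibitor-treated over injured, where 77.1% of all genes were called higher and 2.28% lower. With an ordinary variance per gene, an alternative chosen after seeing the data, the counts were 1 and 18. For injured over sham 8 members were called higher and 5 lower, against 0.565% and 95.5% of all genes, or 9 and 6 with an ordinary variance. For inhibitor-treated over sham 3 were called higher and 19 lower, against 1.77% and 94.4% of all genes, or 2 and 16 with an ordinary variance. The direction of the background is fixed by the subtraction, since the leukocyte genes themselves changed, and the error of the subtracted mean is common to all genes, so these counts are a description.

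**Figure D3:**
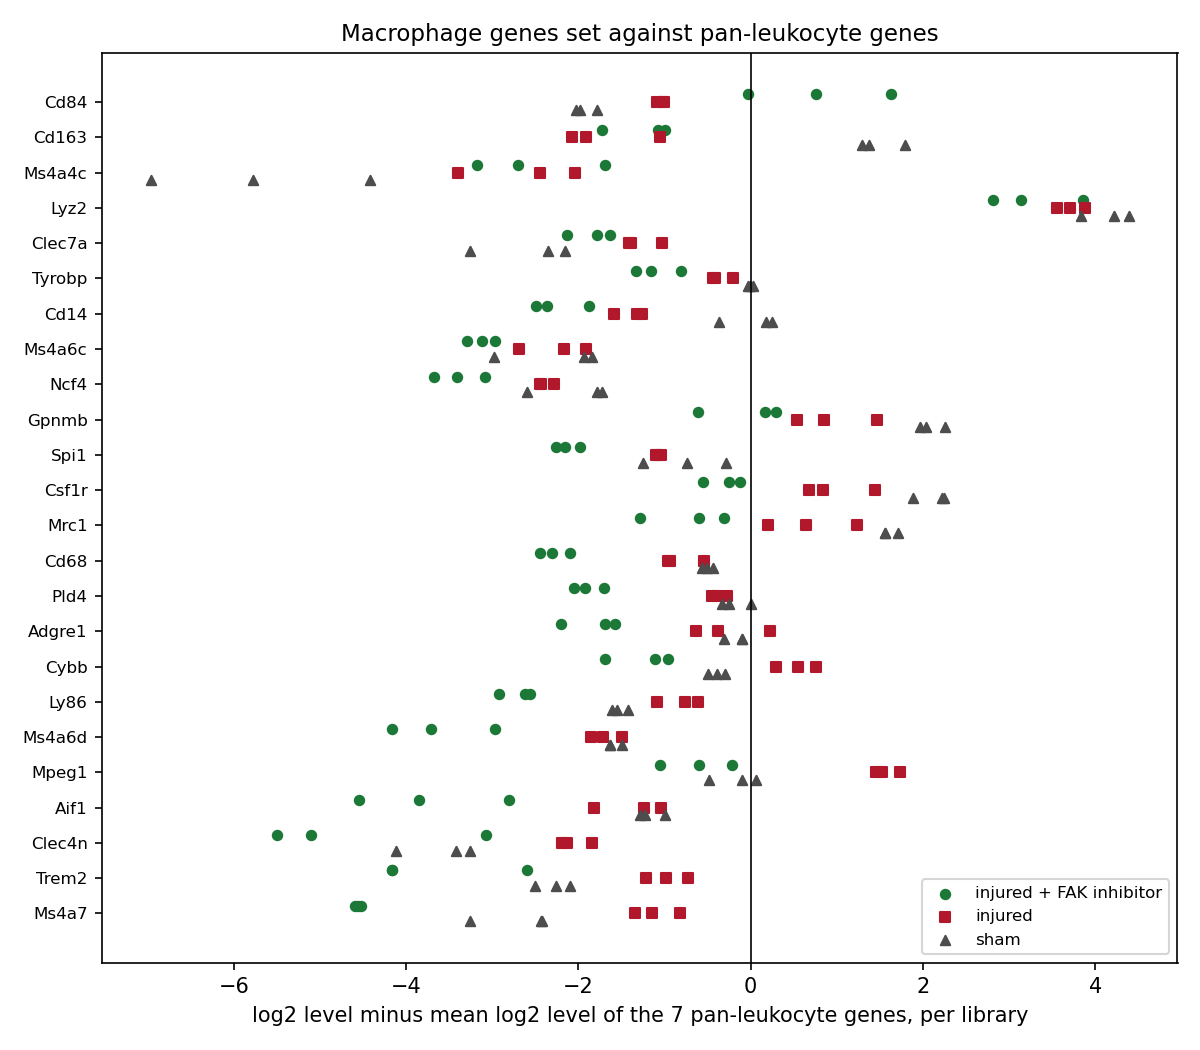
Log2 level minus the mean log2 level of the 7 pan-leukocyte genes in the same library, for the other 24 members, 1 symbol per library, with inhibitor-treated, injured and sham arteries from top to bottom within a gene, ordered from the highest to the lowest difference between inhibitor-treated and injured arteries. Cd84 leads with inhibitor-treated symbols to the right, and Trem2 and Ms4a7 close with inhibitor-treated symbols to the left of both other groups.

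Other genes of the same pathways were counted in lists made for this purpose, to be read against all genes tested, of which 20.6% were called higher and 16.8% lower for injured over sham, 17.6% higher and 18.5% lower for inhibitor-treated over injured, and 5.15% higher and 0.934% lower for inhibitor-treated over sham. Of 6 further CSF ligands and receptors tested, 5 were called higher for injured over sham, 4 lower for inhibitor-treated over injured and 1 higher for inhibitor-treated over sham. Csf1 itself was not called in any of the 3 comparisons, at 1916, 1809 and 1807 normalised counts in inhibitor-treated, 1747, 1942 and 1819 in injured and 2026, 2111 and 2099 in sham arteries. Il34, the other Csf1r ligand, changed by -1.85 ± 0.31 (adjusted p = 0.00356) for inhibitor-treated over injured. The neutrophil receptor Csf3r was the gene higher for inhibitor-treated over sham, by 4.47 ± 0.49 (adjusted p = 0.00152), and it rose by 4.36 ± 0.27 (adjusted p = 1.85e-05) for injured over sham.

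Of 12 other myeloid transcription factors, 10 were called higher for injured over sham and 11 lower for inhibitor-treated over injured, and of 11 tested 2 were called higher for inhibitor-treated over sham. Irf8, which guides monocyte and dendritic cell development, changed by 3.80 ± 0.26 (adjusted p = 2.7e-05) for injured over sham, -2.77 ± 0.23 (adjusted p = 0.000181) for inhibitor-treated over injured and 1.05 ± 0.23 (adjusted p = 0.0372) for inhibitor-treated over sham. Runx1 was the other gene above sham, by 1.77 ± 0.18 (adjusted p = 0.00105). Spic, a factor of iron-recycling macrophages, changed by -3.56 ± 0.50 (adjusted p = 0.00153) for inhibitor-treated over injured.

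Of 7 other oxidase genes, 5 were called higher and 1 lower for injured over sham, 1 higher and 6 lower for inhibitor-treated over injured, and 2 higher for inhibitor-treated over sham. The p47phox subunit Ncf1 changed by 3.47 ± 0.25 (adjusted p = 3.42e-05) for injured over sham and -2.57 ± 0.40 (adjusted p = 0.0024) for inhibitor-treated over injured. Nox4, the oxidase of smooth muscle, ran opposite, at -2.35 ± 0.15 (adjusted p = 2.15e-05) for injured over sham and 2.14 ± 0.16 (adjusted p = 0.00014) for inhibitor-treated over injured. Among the other genes of immunoreceptor (ITAM) signalling, 14 of 15 were called higher for injured over sham, 8 lower and 1 higher of 16 for inhibitor-treated over injured, and 8 of 14 higher for inhibitor-treated over sham. Treml2 was the gene higher for inhibitor-treated over injured, by 2.30 ± 0.40 (adjusted p = 0.00398), and Fcer1g, the Fc receptor gamma chain, stayed above sham by 2.43 ± 0.31 (adjusted p = 0.00333).

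All 6 other MS4A genes tested were called higher for injured over sham, 5 of 8 were called lower and 1 higher for inhibitor-treated over injured, and 3 of 5 higher for inhibitor-treated over sham. The gene that was higher in inhibitor-treated than in injured arteries was Ms4a1, which encodes the B cell protein CD20, by 3.92 ± 0.69 (adjusted p = 0.00439), while Ms4a14 fell by 4.36 ± 0.26. Ms4a1 was uneven across the inhibitor-treated libraries, with a mean of 210 and a standard deviation of 203, against a mean of 8.83 in injured arteries, as normalised for that pair. Among 15 other resident macrophage genes, 9 were called higher and 1 lower for injured over sham, 2 higher and 11 lower for inhibitor-treated over injured, and 2 higher and 2 lower for inhibitor-treated over sham. Pf4, a chemokine of platelets and some macrophages, was higher in inhibitor-treated than in sham arteries by 3.18 ± 0.39 (adjusted p = 0.00255), and Cbr2 was lower in injured than in sham arteries by 2.51 ± 0.12 on the log2 scale.

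Of 16 other lipid-associated macrophage genes, 12 were called higher for injured over sham, 15 lower and 1 higher for inhibitor-treated over injured, and 1 higher for inhibitor-treated over sham, a share near that of all genes. Mmp12, macrophage elastase, was that 1, at 8.32 ± 0.46 (adjusted p = 1.57e-05) for injured over sham, -5.04 ± 0.67 (adjusted p = 0.00125) for inhibitor-treated over injured and 3.30 ± 0.65 (adjusted p = 0.0236) for inhibitor-treated over sham. Of 12 monocyte genes, 9 were called higher and 1 lower for injured over sham, 2 higher and 5 lower for inhibitor-treated over injured, and of 11 tested 5 were called higher for inhibitor-treated over sham. The recruitment receptor Ccr2 changed by 5.40 ± 0.19 (adjusted p = 3.56e-06) for injured over sham, -3.99 ± 0.21 (adjusted p = 4.77e-05) for inhibitor-treated over injured and 1.42 ± 0.20 (adjusted p = 0.00473) for inhibitor-treated over sham.

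Markers of other cell types also differed between the groups, some in the members' direction and some against it, and their part in the results above was not tested. The platelet and megakaryocyte list (8 genes, written after the data were seen) summed to 10208 to 25059.5 in inhibitor-treated, 373 to 617 in injured and 244 to 271 in sham arteries, and all 8 genes were called higher in inhibitor-treated than in injured and in sham arteries. Inhibitor-treated replicate 2 was the highest on this list and the highest of its group for 10 of the 31 members, Cd84 among them. Whether the platelet genes and Cd84 are linked was not tested. The erythroid list summed to 41224 to 91626 in inhibitor-treated, 1076 to 4085 in injured and 3524 to 6535 in sham arteries. Much of this was Alas2, the heme synthesis enzyme of red cell precursors, at 30976, 72797 and 43268 in inhibitor-treated, 157, 64.5 and 94.5 in injured and 277, 150.1 and 313 in sham arteries. Of the 6 erythroid genes tested, 5 were called higher for inhibitor-treated over injured, against 17.6% of all genes. For inhibitor-treated over sham 4 were called higher, against 5.15% of all genes, and 2 were not called. The lowest erythroid change over sham was -0.71, so the list did not rise as a whole.

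Neutrophil genes summed to 2448 to 2760.1 in inhibitor-treated, 1477 to 6818 in injured and 101 to 128 in sham arteries. Within that list Retnlg had 444, 360.5 and 314 normalised counts in inhibitor-treated, 41.8, 256 and 36.1 in injured and 4.01, 3.52 and 1.09 in sham arteries, while the granule gene Ngp had 2.85, 10.1 and 5.45 in inhibitor-treated, 90.7, 755 and 252 in injured and 2.00, 0 and 7.62 in sham arteries, so genes of 1 list did not follow the same order. The B cell list summed to 1034 to 4581 in inhibitor-treated, 3929 to 9173 in injured and 542 to 645 in sham arteries, the T and NK cell list to 350.3 to 539 in inhibitor-treated, 510.2 to 1054 in injured and 45.1 to 75.0 in sham arteries, and the dendritic cell list to 1491 to 1818 in inhibitor-treated, 7062 to 15106 in injured and 994 to 1677 in sham arteries. No gene of the B cell list was at 0 in any library. At 0 in 1 or more libraries stood Cxcr2, Ngp, Camp and Mpo of the neutrophil list, Klrb1c and Nkg7 of the T and NK cell list, Xcr1 of the dendritic cell list, Gp6 and Treml1 of the platelet list, Epb42 of the erythroid list, Fcer1a and Ms4a2 of the mast cell list, and Serpina1a and Fgb of the hepatocyte list.

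The remaining lists summed as follows. Cycling cell genes came to 572 to 1276 in inhibitor-treated, 2000.4 to 2526 in injured and 252 to 320.1 in sham arteries, and mast cell genes to 731 to 915 in inhibitor-treated, 1156 to 1931 in injured and 408 to 784 in sham arteries. Endothelial genes came to 31127 to 32352 in inhibitor-treated, 37112 to 50149.9 in injured and 24516 to 37782 in sham arteries. Fibroblast genes came to 107463 to 118813 in inhibitor-treated, 222705 to 333805 in injured and 128409 to 154171 in sham arteries. Adipocyte genes came to 28096 to 36545 in inhibitor-treated, 57226 to 90532 in injured and 31702 to 74307 in sham arteries. The 5 genes used of the Kupffer cell list, which marks liver macrophages, came to 4234 to 4933 in inhibitor-treated, 3339 to 3770.2 in injured and 4038 to 4311 in sham arteries. Nearly all of that sum was Id3, which many cell types express, so it says little of Kupffer cells. Of the other genes of the list, Cd5l had 0.95, 0.92 and 57.3 normalised counts in inhibitor-treated, 57.3, 37.0 and 38.7 in injured and 2.00, 4.69 and 6.53 in sham arteries, and Vsig4 had 4.75, 1.83 and 38.2 in inhibitor-treated, 10.7, 18.0 and 8.59 in injured and 11.01, 5.86 and 20.7 in sham arteries. Both were highest of their group in inhibitor-treated replicate 3, the library high in hepatocyte genes.

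**Figure D4:**
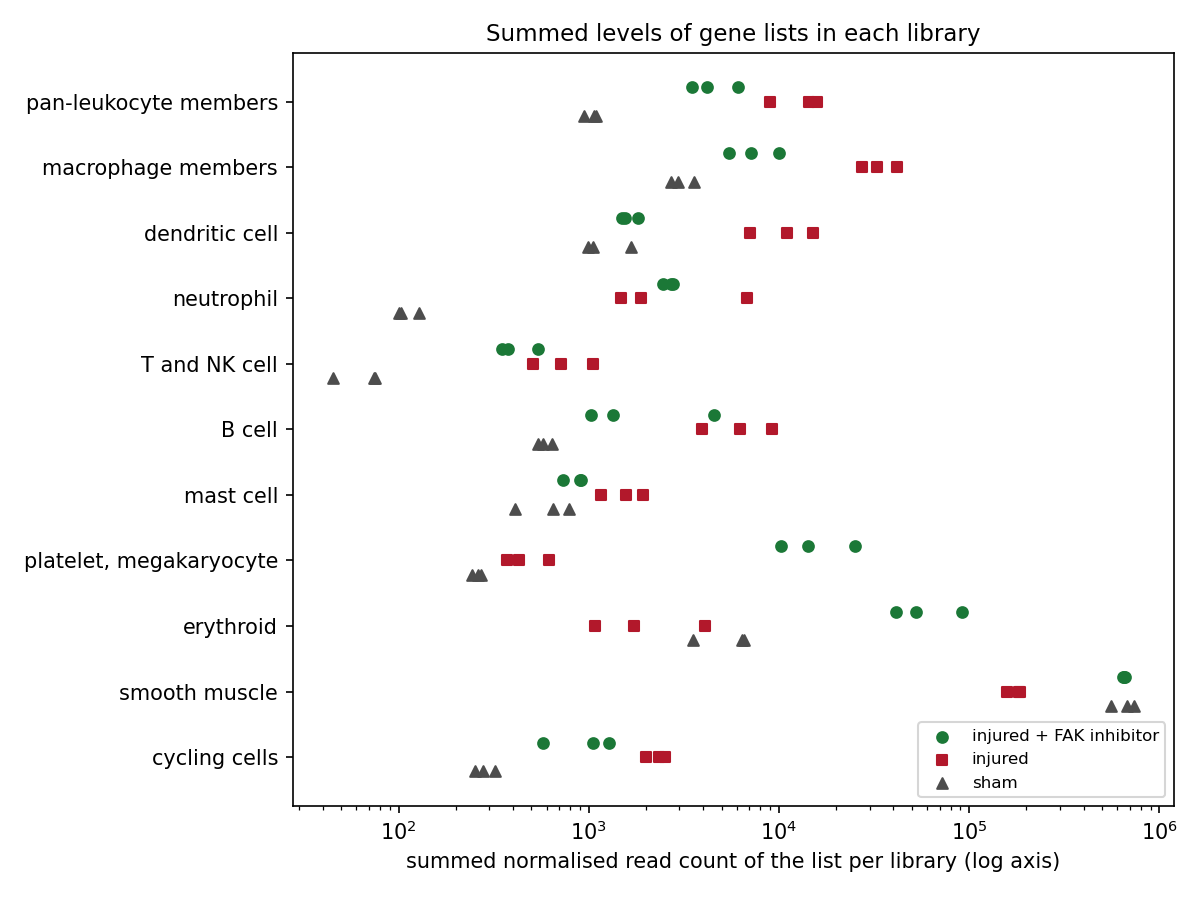
Summed normalised read count of each gene list per library on a log axis, with inhibitor-treated arteries as circles, injured arteries as squares and sham arteries as triangles from top to bottom within a list. The macrophage and dendritic cell lists are highest in injured arteries, whereas the platelet and erythroid lists are highest in inhibitor-treated arteries.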

How the data were processed

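Total RNA was sequenced in 9 libraries, 3 per group. The authors deposited 3 tables, 1 per pair of groups, each with a normalised signal (read counts divided by 1 factor per library), a log2 fold change and p-values per gene, per the file headers. Dividing each column by the value of 1 read gave whole reads for 100% of values, within 0.01 of a read. The build was mm10 (GRCm38), per the submitters' processing notes. The authors' aligner, counting program and use of strand were not given in the sources used here. No per-sample column was left unassigned.

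Each pair of groups was tested in its own table with limma 3.58.1 (R 4.3.3, trended variance, two-sided) on log2(normalised count + 1) for genes with a mean of at least 10, with Benjamini-Hochberg adjustment over all genes, and fold changes understate low genes. Levels across groups come from the recovered reads, rescaled by median-of-ratios over the 9 libraries. edgeR 4.0.16 and DESeq2 1.42.0 on the recovered reads were alternatives, and limma was used as the main test because the deposited values are normalised. The fits were tested on simulated data. Promoter windows are from RefSeq (GRCm38.p6), and exons and gene positions from the GENCODE annotation of GRCm38.

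The members and gene lists were chosen with earlier results of these data known. All 31 members are named, and of each pathway list at most 4 called genes with the largest change and groups that do not overlap. Csf1 and, among cell type markers, Alas2, Retnlg, Ngp, Cd5l, Vsig4 and Id3 were named after their values were seen.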

Additional observations from a re-analysis of the deposited data

How the results depend on the processing

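Among members called in the main fit or in the alternative, no fold change reversed under any alternative run. Changes of sign in members called in neither fit, such as Cd84 for inhibitor-treated over injured may show, were not counted. The counts of members called held within 1.5 times the main count except when single libraries were left out. Leaving out 1 library at a time gave 30 to 31 members called for injured over sham, 25 to 29 for inhibitor-treated over injured and 7 to 14 for inhibitor-treated over sham, and 4356 to 7277, 4080 to 7926 and 518 to 854 genes in all, in that order of comparisons. For inhibitor-treated over sham the main fit called 983 genes, and 598 were called without inhibitor-treated replicate 1, 533 without inhibitor-treated replicate 2, 518 without sham replicate 1 and 596 without sham replicate 2. Counted relative to the pan-leukocyte genes, the same gave 12 to 15, 14 to 17 and 20 to 23 members. With array weights 9621 genes were called for injured over sham (6076 in the main fit) and 10651 for inhibitor-treated over injured (6099), and without the libraries that stand apart 3295 for inhibitor-treated over injured. With a filter at a mean of 50, 14 members were called relative to the pan-leukocyte genes for inhibitor-treated over sham, against 22, as fewer members passed that filter. Relative to the pan-leukocyte genes, array weights turned Lyz2 to 0.20 for inhibitor-treated over injured and Clec4n to 0.72 for inhibitor-treated over sham, and the cause was not tested. DESeq2 and the authors' deposited p-values each called 16 members for inhibitor-treated over sham, against 13. Where a member's call differed from the main fit, DESeq2 gave the same fold change as the deposited tables, so it is not a separate check on them.

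Scaling on ribosomal protein genes moved the median of all genes to -0.26 for injured over sham, 0.40 for inhibitor-treated over injured and 0.11 for inhibitor-treated over sham, and called 30, 24 and 15 members in that order. The split of all calls, higher and lower, was then 2098 and 2541 for injured over sham (3346 and 2730 in the main fit), 3643 and 1378 for inhibitor-treated over injured (2976 and 3123), and 1270 and 36 for inhibitor-treated over sham (832 and 151). With quantile normalisation it was 2842 and 3344 for injured over sham and 617 and 220 for inhibitor-treated over sham.

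The replicate numbers gave no clear pairing of the samples. Over all genes, deviations of same-numbered libraries correlated between -0.0761 and 0.192, and over the members between -0.298 and 0.474. Not every library correlated best with its own number. These values cannot show that the samples were unpaired, given 3 libraries per group. A replicate block gave 31, 28 and 14 members called, 5762, 5747 and 877 genes in all, and 13, 13 and 22 members relative to the pan-leukocyte genes, in the same order of comparisons. With 3 libraries per group, a difference that misses the threshold is not shown to be absent.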
